A study of Mus musculus with 12 samples.

Results

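The constitutive proteasome genes were taken as the known genes of the deposited gene table whose symbols start with Psma, Psmb, Psmc, Psmd or Psme and a digit, leaving out the immunoproteasome subunits Psmb8, Psmb9 and Psmb10 and symbols containing -ps. That gave 42 genes of 33625 in the table, 22036 of which are known genes. Of the 42, 8 belong to the 20S alpha ring, 8 to the 20S beta ring, 6 are 19S ATPases, 11 are 19S non-ATPase subunits, 3 are 19S assembly chaperones that carry Psmd symbols and 5 are activator caps. The last one, Psmc3ip, matches by its symbol alone: it encodes a partner of the meiotic recombinases and is no proteasome subunit. No measured value entered this choice.

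The proteasome is the protease that degrades most ubiquitin-tagged proteins of the cytosol and nucleus. Its barrel, the 20S core, stacks alpha rings on the outside and beta rings on the inside, and the beta5, beta1 and beta2 subunits (Psmb5, Psmb6 and Psmb7) hold the active sites. The 19S particle caps the barrel: its ring of ATPases unfolds the substrate, and its non-ATPase subunits bind the ubiquitin chain and cut it off. Activators of the Psme family can take the place of the 19S particle. When proteasome activity is short, the transcription factor NRF1 (Nfe2l1) is known to raise the genes of the core and the 19S particle together. Proteasomes also remove cell cycle regulators and repair factors after DNA damage, and intestinal epithelium is among the tissues most sensitive to ionising radiation.

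The study used MODE-K, a wild-type mouse line derived from small-intestinal epithelium, grown in flasks and exposed to gamma rays of a cobalt source at 87 cGy/min. There were 4 groups of 3 libraries: controls without irradiation taken at 0 h, 4 Gy taken at 48 h (4Gy_48h), 12 Gy taken at 24 h (12Gy_24h) and 12 Gy taken at 48 h (12Gy_48h). Control cells were harvested at 0 h only. Against control, an effect of dose and one of hours spent in culture therefore cannot be told apart. The labels do not say that the 3 libraries of a group came from separate cultures, so p-values measure the spread between libraries, which may be technical. The cells are 1 line. RNA was measured in bulk, so fewer cells of a type and less RNA per cell cannot be told apart.

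Libraries held 3616416 to 4831641 assigned reads. Known genes held 76.3% ± 1.19 (SD, n = 3) of the reads in controls and 86.2% ± 0.0112 at 12Gy_24h, because loci that the authors assembled anew held 21.0% ± 1.03 and 11.9% ± 0.0571. Scaling over all genes therefore placed the median known gene above control by 0.23 on the log2 scale at 12Gy_24h, 0.20 at 12Gy_48h and 0.14 at 4Gy_48h. For that reason each comparison of the proteasome genes is given in 2 fits of edgeR's quasi-likelihood test, one over all 15086 genes that passed the filter on low counts and one over the 9816 known genes alone, where those medians were -0.00, 0.01 and -0.01. The threshold for a call was 0.05 for the p adjusted by Benjamini and Hochberg across the fit, and "rose" or "fell" is used only for a gene called in both fits. Of 8 epithelial markers, 7 had at most 5 reads in every library and Cldn7 had 0, so these markers give the epithelial label little to rest on; their summed CPM was 1.32 to 5.59 in controls, 5.71 to 7.39 in the 4Gy_48h libraries, 11.9 to 16.7 in those of 12Gy_24h and 7.52 to 9.10 in those of 12Gy_48h. Of 9 fibroblast and mesenchymal markers, whose summed CPM was 691 to 1119 in controls, 1241 to 1724 in the 4Gy_48h libraries, 2277 to 2723 in those of 12Gy_24h and 1473 to 2010 in those of 12Gy_48h, Lum had 0 reads and 3 others had at most 5. Vim held most of this sum, with 4452, 1917 and 1884 reads in controls and 9037, 9227 and 7340 at 12Gy_24h. Pdgfrb went the other way, from 13, 10 and 13 reads to 3, 2 and 5, as did Dcn, from 2, 3 and 1 to 0. The epithelial sum was mostly Krt18, with 25, 5 and 12 reads in controls and 46, 62 and 54 at 12Gy_24h. Of 8 immune markers, 5 had reads, and Ptprc, Cd3e and Adgre1 had 0 in all 12 libraries. Their summed CPM was 8.69 to 10.6 in controls, 7.64 to 11.7 in the 4Gy_48h libraries, 8.60 to 13.0 in those of 12Gy_24h and 9.92 to 14.5 in those of 12Gy_48h. The part of these lists in the proteasome results was not tested.

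Reads of the tested proteasome genes ran from 59 (Psmc3ip) to 2729 (Psma7) per library. The summed share of the 42 genes in all reads averaged 0.659% ± 0.0463 (SD, n = 3) in controls and 0.713% ± 0.0269 after 4 Gy. After 12 Gy it averaged 0.770% ± 0.0289 at 24 h and 0.769% ± 0.0176 at 48 h. Control replicate 1 was the lowest library at 0.618% and 12Gy_24h replicate 3 the highest at 0.802%. As a share of the reads on known genes the groups lay closer, at 0.864% ± 0.0713, 0.871% ± 0.0359, 0.893% ± 0.0335 and 0.928% ± 0.0131 in the same order, and control replicate 2 at 0.938% was above all 3 libraries of 12Gy_24h.

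Of the 42 genes, 40 had a read in some library and 39 passed the filter. Psma8, the alpha subunit of the testis proteasome, and Psmb11, the beta5t subunit of thymus epithelium, had 0 reads in all 12 libraries. Psme2b, a retrocopy relative of Psme2, had 0 to 1 read per library, and reads of such a copy may be shared with Psme2.

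Levels differed widely between subunits that sit in one particle in equal numbers. Reads per library ran from 2215 to 2729 for Psma7 (alpha4), the gene with the highest mean level at 625 CPM over the 12 libraries. In the alpha ring they ran from 504 to 747 for Psma1, 862 to 1300 for Psma2, 1187 to 1750 for Psma3, 1248 to 1805 for Psma4, 927 to 1587 for Psma5 and 464 to 611 for Psma6. In the beta ring they ran from 1835 to 2257 for Psmb1, 668 to 1036 for Psmb2, 860 to 1163 for Psmb3, 1624 to 2544 for Psmb4, 172 to 364 for Psmb5, 738 to 1054 for Psmb6 and 738 to 1075 for Psmb7. Psmb5, the gene of the chymotrypsin-like active site, was thus the least read of the tested core genes.

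The 19S ATPase genes had 375 to 564 reads for Psmc1, 532 to 821 for Psmc2, 401 to 478 for Psmc3, 401 to 585 for Psmc4, 1288 to 1635 for Psmc5 and 685 to 850 for Psmc6. The non-ATPase genes had 99 to 201 reads for Psmd1, 340 to 482 for Psmd2, 197 to 339 for Psmd3, 348 to 583 for Psmd4, 251 to 463 for Psmd6, 391 to 655 for Psmd7, 937 to 1648 for Psmd8, 178 to 399 for Psmd11, 270 to 361 for Psmd12, 253 to 382 for Psmd13 and 655 to 841 for Psmd14. The deubiquitinase Psmd14 and Psmd8 were thus read more often than the large scaffold subunit Psmd1. The chaperones had 174 to 309 reads for Psmd5, 164 to 220 for Psmd9 and 229 to 325 for Psmd10, and the caps 393 to 968 for Psme1, 178 to 296 for Psme2, 165 to 260 for Psme3 and 75 to 147 for Psme4. Psmc3ip had 59 to 133 reads, the lowest mean level of the tested genes at 20.7 CPM. Per kb of the longest annotated transcript the order runs from Psma7 at 540 CPM per kb to Psme4 at 3.99, a scale that holds only if reads were fragments, which the sources used here do not settle.

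Reads of 7 of the genes can be shared with an overlapping gene that has reads, since the strand of counting is not stated: Psmc3 with Slc39a13, Psmd13 with Sirt3, Psmb7 with Nek6, Psmc3ip with Mlx, Psma4 with AY074887, Psme1 with Emc9 and Psme2b with 9930111J21Rik1. For Psma4 and Psme1 the partner had 7 and 11 reads over all 12 libraries.

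Summed by part of the particle, the 19S non-ATPase subunits lay above control at both times after 12 Gy and the activator caps most at 48 h (log2 ratio 0.63), while the sums of the 19S ATPases overlapped with control. The deposited CPM of the 11 non-ATPase genes summed to 1072, 1188 and 1097 in the 3 controls, to 1300, 1152 and 1195 at 4Gy_48h, to 1409, 1435 and 1537 at 12Gy_24h and to 1445, 1447 and 1487 at 12Gy_48h. All 6 libraries of 12 Gy lay above all 3 controls, also when CPM was taken over reads on known genes (1380, 1571 and 1451 in controls against 1634 to 1782 at 12Gy_24h and 1753 to 1776 at 12Gy_48h). Psmd8, the gene of this part with the highest level, averaged 277 CPM after scaling in controls and 397 at 12Gy_48h. At 12Gy_48h 9 of the 11 genes had a positive log2 fold change over all genes, and 7 with known genes alone. The 6 ATPase genes, the motor of the same particle, summed to 959, 1168 and 1112 in controls, 1006, 1012 and 1073 at 12Gy_24h and 1089, 1130 and 1078 at 12Gy_48h. Both 12 Gy groups overlapped with controls, with log2 ratios to control of -0.06 and 0.03, or -0.24 and -0.09 over known genes. In deposited CPM the 12Gy_48h sums lay above those of 12Gy_24h. After scaling over all genes, 2 of these 6 genes had a positive log2 difference between those times (median -0.11). The caps summed to 281, 265 and 239 in controls, 358, 345 and 325 in the 4Gy_48h libraries, 304, 313 and 301 in those of 12Gy_24h and 397, 394 and 422 in those of 12Gy_48h. Every irradiated library lay above every control for this sum, in which Psme1 had the highest level. Mean CPM after scaling in controls and at 12Gy_48h was 128 and 233 for Psme1, 55.7 and 70.0 for Psme2 and 25.4 and 32.1 for Psme4. For Psme3 it was lower at 12Gy_48h, at 54.9 and 48.0, so the sum does not show a change of each cap. On the scale over known genes the caps' log2 ratio to control at 12Gy_24h was 0.05 in place of 0.23, and those libraries (349 to 363) overlapped with controls (317 to 362).

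The core lay between. Sums over the alpha ring were 1950, 2284 and 1976 CPM in controls and 2479, 2527 and 2611 at 12Gy_24h, a log2 ratio of 0.30, which was 0.12 over known genes. Sums over the beta ring were 1740, 1998 and 1876 in controls and 2059, 2115 and 2261 at 12Gy_24h, a log2 ratio of 0.20, which was 0.02 over known genes. For both rings the 12Gy_24h libraries lay above the controls on the scale over all genes. So did those of 12Gy_48h, with 2340, 2320 and 2580 CPM for the alpha ring (log2 ratio 0.22) and 2100, 2134 and 2124 for the beta ring (0.18). Over known genes these ratios at 12Gy_48h were 0.10 and 0.06, and for both rings both 12 Gy groups overlapped with controls.

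**Figure D1:**
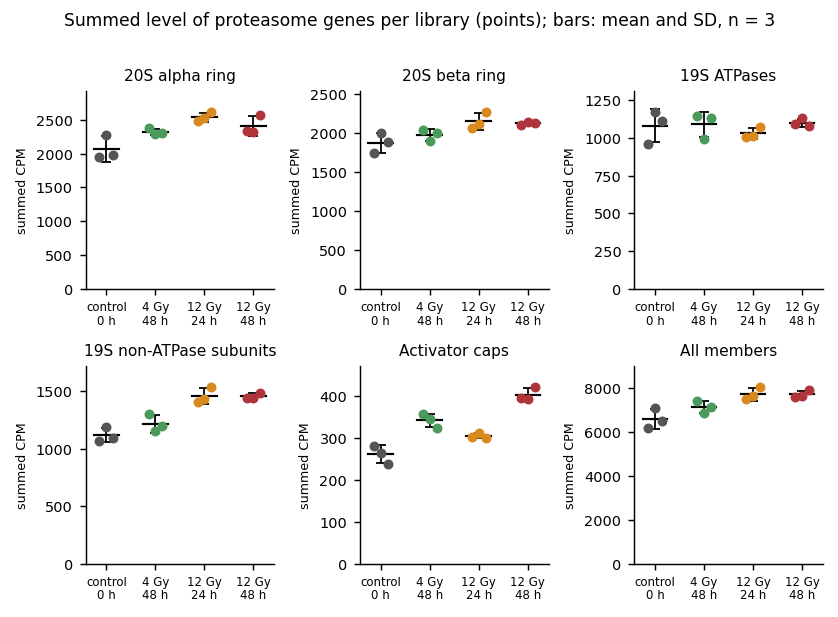
Summed deposited CPM of the genes of each part of the proteasome, and of all 42 genes, in each of the 12 libraries (points) with mean and SD of 3 libraries, by group. The non-ATPase sums of both 12 Gy groups (1409 to 1537) lie above the controls (1072 to 1188), while the ATPase sums of each irradiated group overlap with the controls.

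At 24 h after 12 Gy the genes called higher were spread over the core and the non-ATPase part of the 19S particle, with Psmd1, Psmd11, Psmd5, Psma5 and Psmd4 standing out in both fits. Over all genes 21 of 39 proteasome genes were higher and 0 lower, where 18.5% of the 15086 genes were higher and 29.4% lower. All 39 are known genes, and of the known genes in that fit 26.5% were higher and 3.99% lower. In the fit to known genes 5 were higher and 2 lower, where 9.15% of the 9816 known genes were higher and 7.91% lower. The median log2 fold change of the 39 was 0.30 beside 0.23 for all known genes, and 0.06 beside -0.00 with known genes alone, and 24 of 39 lay above the known-gene median. No gene was lower over all genes at an unadjusted p under 0.05 either (0 of 39), and DESeq2 called 22 higher and 0 lower. With libraries scaled by their totals, 14 were higher and 1 lower over all genes, where 19.1% and 5.77% of known genes were. With known genes alone 11 genes were higher and 5 lower at an unadjusted p under 0.05.

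The parts of the particle differed in their counts. Over all genes, 10 of 11 non-ATPase genes, 6 of 7 tested alpha genes, 3 of 7 tested beta genes, 1 of 3 chaperones, 1 of 4 tested caps and 0 of 6 ATPases were called higher. Of the ATPases, 1 had an unadjusted p under 0.05 in edgeR (Psmc6, higher by 0.25), and DESeq2 called 1 higher. With known genes alone the counts were 3 non-ATPase genes (Psmd1, Psmd11 and Psmd4), 1 alpha gene (Psma5), 0 beta genes, 1 chaperone (Psmd5) and 0 caps, and 1 ATPase, Psmc2 (Rpt1), was lower by 0.44 (-0.44, adjusted p = 0.0185). Psmc2 was no call over all genes (-0.21, adjusted p = 0.178), and its known-gene call was lost without control replicate 2 or 12Gy_24h replicate 1 or 2 (adjusted p up to 0.0728). Whether the parts differ from each other was not tested.

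Psmd11 (Rpn6) is the non-ATPase subunit that clamps the 19S particle to the core, at chr11:80428615-80473248. Its level after scaling was 59.7, 49.4 and 47.7 CPM in controls, 61.5, 43.9 and 56.1 in the 4Gy_48h libraries, 93.4, 89.5 and 116 in those of 12Gy_24h and 54.9, 53.7 and 59.3 in those of 12Gy_48h. Only 12Gy_24h stood apart, with each of its libraries above each of the other 9. The rise against control was log2 0.93 ± 0.15 SE (adjusted p = 7.3e-05), and with known genes alone log2 0.69 (adjusted p = 0.00306).

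Psmd1 (Rpn2) is the scaffold that holds ubiquitin receptors, at chr1:86064387-86139151. It was measured at 23.6, 25.4 and 35.1 CPM in controls, 34.3, 32.3 and 33.7 in the 4Gy_48h libraries, 51.5, 55.4 and 54.5 in those of 12Gy_24h and 39.5, 34.6 and 40.5 in those of 12Gy_48h. The 12Gy_24h libraries again lay above all others, and control replicate 3 lay within the range of the 48 h groups. The rise was 1.93-fold (log2 0.95 ± 0.15 SE, adjusted p = 5.13e-05), or log2 0.71 with known genes alone (adjusted p = 0.00305).

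Psmd5 (S5b), a chaperone that holds part of the ATPase ring during 19S assembly and is no part of the finished particle, lies at chr2:34849734-34874968. Its levels were 49.0, 44.6 and 52.5 CPM in controls, 58.2, 53.8 and 57.2 in the 4Gy_48h libraries, 74.6, 77.4 and 90.1 in those of 12Gy_24h and 54.2, 50.7 and 63.2 in those of 12Gy_48h. It rose by log2 0.73 ± 0.13 SE at 12Gy_24h (adjusted p = 0.000178), or 0.49 with known genes alone (adjusted p = 0.0113). The other 2 such chaperones, Psmd9 (p27) at 0.13 and Psmd10 (gankyrin) at 0.29, were not called.

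Psma5 (alpha5), at chr3:108256926-108279974, was the core gene called in both fits. It stood at 263, 288 and 248 CPM in controls, 314, 312 and 302 in the 4Gy_48h libraries, 397, 437 and 430 in those of 12Gy_24h and 307, 297 and 361 in those of 12Gy_48h. The 12Gy_24h libraries were above the other 9, and all libraries of the other irradiated groups were above all controls. The rise was log2 0.66 ± 0.10 SE (adjusted p = 4.72e-05), or 0.42 with known genes alone (adjusted p = 0.0065).

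Psmd4 (Rpn10), an intrinsic ubiquitin receptor of the 19S particle, lies at chr3:95032694-95042614. It measured 92.8, 98.6 and 93.2 CPM in controls, 127, 103 and 113 in the 4Gy_48h libraries, 140, 159.5 and 146 in those of 12Gy_24h and 149, 148 and 152 in those of 12Gy_48h. Unlike the 4 genes before it, its 12 Gy libraries overlapped between 24 h and 48 h, and all lay above controls and 4Gy_48h. It rose by log2 0.65 ± 0.11 SE at 12Gy_24h (adjusted p = 0.000119; 0.41 and adjusted p = 0.014 with known genes alone), and the known-gene call was lost without 12Gy_24h replicate 2 (adjusted p = 0.0769).

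The other genes called higher over all genes at 12Gy_24h were not called with known genes alone. In the non-ATPase part these were Psmd2 (Rpn1, 0.54), Psmd3 (Rpn3, 0.46), Psmd6 (Rpn7, 0.60), Psmd7 (Rpn8, 0.59), Psmd8 (Rpn12, 0.36), Psmd12 (Rpn5, 0.39) and Psmd13 (Rpn9, 0.41). Of these, Psmd2, Psmd6 and Psmd7 lay close to the threshold with known genes alone, at adjusted p = 0.0527, 0.0561 and 0.054. Psmd14, the deubiquitinase Rpn11 that removes the chain before degradation, was the non-ATPase gene not called (0.21, adjusted p = 0.123). In the core they were Psma1 (0.27), Psma2 (0.52), Psma3 (0.41), Psma4 (0.31), Psma7 (0.29), Psmb4 (0.54), Psmb5 (0.46) and Psmb6 (0.30), and in the caps Psme1 (0.58). Psmc3ip was called lower with known genes alone (-0.62, adjusted p = 0.034) and not over all genes (-0.39), from 28.6, 19.2 and 24.1 CPM in controls, 16.6, 28.9 and 24.0 in the 4Gy_48h libraries, 19.9, 16.3 and 18.96 in those of 12Gy_24h and 19.6, 18.1 and 15.9 in those of 12Gy_48h. Its groups overlapped, and the known-gene call was lost without control replicate 1 or 3 or any 1 of the 12Gy_24h libraries (adjusted p up to 0.125). Leaving out 1 library ended the call over all genes for Psma1 (without control replicate 3, adjusted p = 0.0584), Psma4 (without control replicate 1 or 3 or 12Gy_24h replicate 1, up to 0.148) and Psmb5 (without control replicate 2 or 12Gy_24h replicate 1, up to 0.193).

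**Figure D2:**
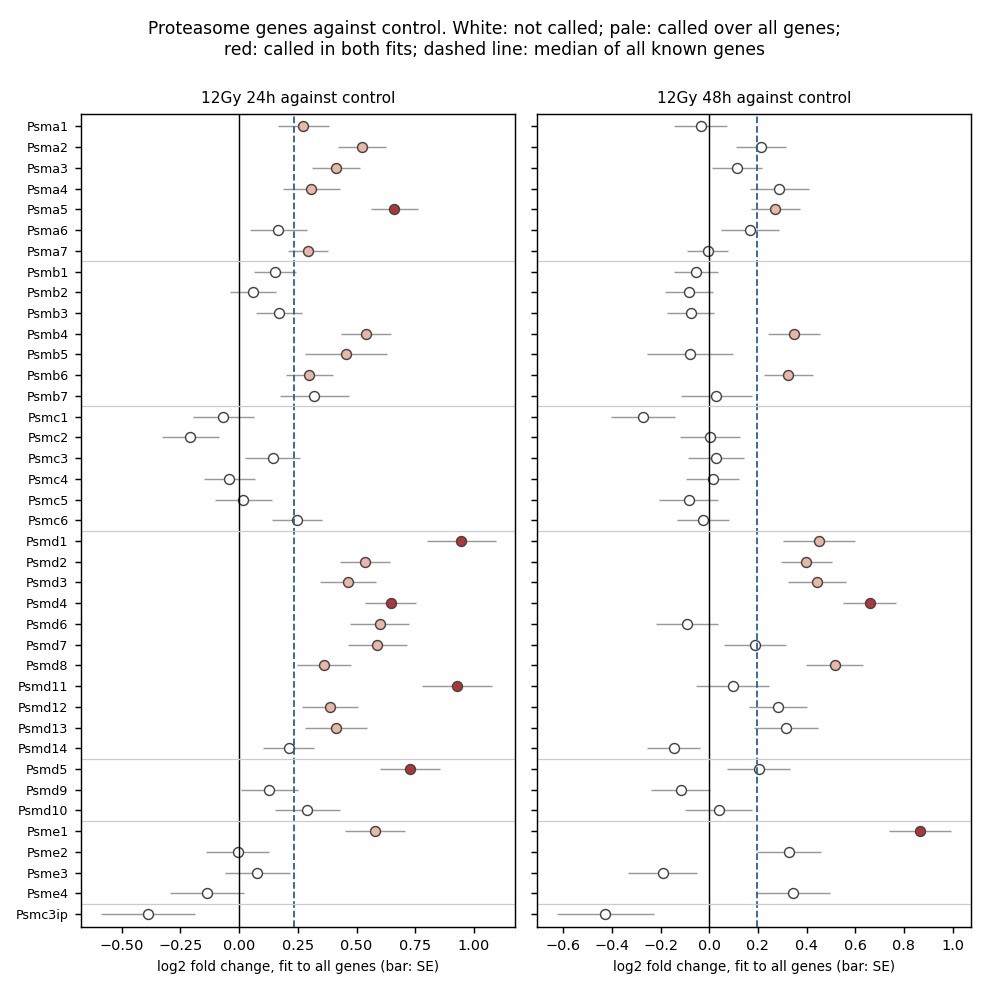
Log2 fold changes against control of the 39 tested proteasome genes at 24 h (left) and 48 h (right) after 12 Gy in the fit to all genes, with SE bars, ordered by part of the particle. White points were not called, pale points were called over all genes, red points in both fits, and the dashed line is the median of all known genes (0.23 and 0.20). The 6 Psmc genes stay white in both panels, and the red points are 5 genes at 24 h and 2 at 48 h.

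The start regions of the 4 genes that rose at 24 h and were lower again at 48 h in both fits are shown because these genes were called in both comparisons. The windows hold 250 bases before and 50 after the start site, from RefSeq on GRCm38.p6, which had windows for 35 of the 42 genes. The windows are chr1:86064369-86064668 (plus strand) for Psmd1, chr11:80428365-80428664 (plus) for Psmd11, chr2:34870913-34871212 (minus) for Psmd5 and chr3:108256676-108256975 (plus) for Psma5, printed 5' to 3' along the gene. Capitals mark matches to 3 motifs searched on both strands: TGACNNNGC, the core of the antioxidant response element that NRF1 and NRF2 bind, CCAAT, the NF-Y box, and GGGCGG, the SP1 GC box. In Psmd1 a pair of GGGCGG matches overlaps. The Psmd5 window lies wholly inside the gene span given above, so the RefSeq start is not the end of that span. Most of the Psmd1 window also lies inside its gene span, which begins at chr1:86064387.
Psmd1: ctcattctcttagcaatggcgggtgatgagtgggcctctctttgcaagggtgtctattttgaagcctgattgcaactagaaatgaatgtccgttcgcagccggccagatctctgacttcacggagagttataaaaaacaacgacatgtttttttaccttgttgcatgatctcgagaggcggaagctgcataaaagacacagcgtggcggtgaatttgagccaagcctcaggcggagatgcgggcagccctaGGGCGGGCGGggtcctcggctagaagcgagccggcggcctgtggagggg
Psmd11: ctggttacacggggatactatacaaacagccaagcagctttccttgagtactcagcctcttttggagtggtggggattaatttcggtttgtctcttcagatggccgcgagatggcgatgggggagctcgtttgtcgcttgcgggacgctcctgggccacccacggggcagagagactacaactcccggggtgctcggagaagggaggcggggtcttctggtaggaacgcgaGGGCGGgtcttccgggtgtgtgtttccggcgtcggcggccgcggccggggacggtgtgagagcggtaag
Psmd5: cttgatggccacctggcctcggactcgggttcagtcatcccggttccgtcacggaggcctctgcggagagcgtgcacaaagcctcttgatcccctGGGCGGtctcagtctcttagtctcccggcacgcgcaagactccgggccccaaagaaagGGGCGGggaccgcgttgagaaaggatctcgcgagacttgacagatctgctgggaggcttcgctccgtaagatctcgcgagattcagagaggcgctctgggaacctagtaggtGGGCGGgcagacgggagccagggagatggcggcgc
Psma5: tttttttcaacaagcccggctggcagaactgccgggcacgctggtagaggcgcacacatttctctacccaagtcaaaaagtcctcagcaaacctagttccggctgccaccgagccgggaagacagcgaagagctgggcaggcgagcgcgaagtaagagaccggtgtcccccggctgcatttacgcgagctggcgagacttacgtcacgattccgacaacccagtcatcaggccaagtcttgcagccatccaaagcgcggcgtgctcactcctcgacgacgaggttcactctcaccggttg

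These 4 windows had 0 matches to TGACNNNGC and 0 to CCAAT. The GC box GGGCGG was found 2 times in Psmd1, 1 time in Psmd11, 3 times in Psmd5 and 0 times in Psma5. Among the 35 proteasome genes with a window 60.0% had GGGCGG, 40.0% CCAAT and 17.1% TGACNNNGC, beside 38.2%, 41.1% and 13.99% of the 27025 genes with a window. The median GC content was 58.2% in the 38 windows of proteasome genes and 52.7% in all 32851 windows, so the GC box was searched in richer sequence. A match is a run of letters and not a bound site.

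The 6 windows with TGACNNNGC are shown by their matches, since this motif is the one tied to joint control of the family. Each is printed on the strand that reads the motif, with up to 10 bases on each side and the match in capitals, at chr14:54618034-54618042 (minus strand) for Psmb5, chr11:70525348-70525356 (plus) for Psmb6, chr14:45329597-45329605 (minus) for Psmc6, chr11:107479281-107479289 (minus) for Psmd12, chr5:123228159-123228167 (plus) for Psmd9 and chr11:30771768-30771776 (minus) for Psme4. Their distances before the RefSeq start site were 47, 9, 227, 247, 31 and 7 bases in that order. For Psmd9 the GENCODE gene span begins at chr5:123169413, ahead of its whole window. The Psme4 match runs across the RefSeq start site and lies inside the GENCODE span, which begins at chr11:30771726.
Psmb5: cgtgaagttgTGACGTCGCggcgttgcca
Psmb6: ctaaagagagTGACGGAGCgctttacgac
Psmc6: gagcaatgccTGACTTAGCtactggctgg
Psmd12: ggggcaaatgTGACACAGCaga
Psmd9: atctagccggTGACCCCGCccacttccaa
Psme4: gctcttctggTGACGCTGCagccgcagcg

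Of these 6 genes, Psmb5, Psmb6 and Psmd12 were called higher at 12Gy_24h over all genes and none with known genes alone, and Psmc6, Psmd9 and Psme4 were not called in that comparison.

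At 48 h after 12 Gy the genes that rose were a ubiquitin receptor, Psmd4, and an activator cap, Psme1. Over all genes 9 of 39 were higher and 0 lower, where 12.9% and 20.2% of all genes were. Of the known genes in that fit 18.2% were higher and 3.74% lower. Among known genes fitted alone 2 were higher and 3 lower, where 6.76% and 8.04% of known genes were. The median log2 fold change was 0.10 beside 0.20 for known genes, and -0.09 beside 0.01 with known genes alone, and 16 of 39 lay above the known-gene median. Scaling known genes by their totals gave 7 higher and 0 lower, where 13.2% and 4.01% of known genes were. That alternative, chosen after seeing the data, had a median of 0.07 beside 0.16 for known genes. At an unadjusted p under 0.05 edgeR had 14 genes higher and 1 lower over all genes, and 4 higher and 12 lower with known genes alone, and DESeq2 called 7 higher and 0 lower.

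Psme1, at chr14:55578123-55581529, encodes PA28 alpha, which with PA28 beta (Psme2) forms the interferon-inducible ring that opens the core without ATP and favours peptides for MHC class I. It measured 151, 126 and 105 CPM in controls, 205, 194 and 171 in the 4Gy_48h libraries, 180, 193 and 198 in those of 12Gy_24h and 222, 225 and 253 in those of 12Gy_48h. Controls were lowest, the 4 Gy and 12 Gy 24 h libraries overlapped, and 12Gy_48h lay above all others. The rise at 48 h was 1.83-fold (log2 0.87 ± 0.13 SE, adjusted p = 0.000104), or log2 0.68 with known genes alone (adjusted p = 0.00112), and both calls were kept in each of 6 fits that left out 1 library of the pair of groups.

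Psmd4 rose by log2 0.66 ± 0.11 SE at 48 h (adjusted p = 0.000269; 0.47 and adjusted p = 0.00669 with known genes alone), and was also kept in all 6. Psme2, the partner of Psme1, stood at 63.6, 55.8 and 47.7 CPM in controls and 70.4, 64.4 and 75.3 at 12Gy_48h, without overlap, and was not called (0.33, adjusted p = 0.0651). The nuclear activators were not called either: Psme3 (PA28 gamma) was at -0.19 and Psme4 (PA200) at 0.34.

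Called higher at 48 h over all genes and not with known genes alone were Psma5 (0.27), Psmb4 (0.35), Psmb6 (0.33), Psmd1 (0.45), Psmd2 (0.40), Psmd3 (0.44) and Psmd8 (0.52). Over all genes the calls of Psma5 and Psmd1 ended in 4 of 6 leave-outs each: for Psma5 without control replicate 1 or 3 or 12Gy_48h replicate 1 or 3 (adjusted p up to 0.189), and for Psmd1 without control replicate 1 or 2 or 12Gy_48h replicate 1 or 3 (up to 0.0921). Psmb6 lost it without 12Gy_48h replicate 3 (0.0509). Called lower with known genes alone, and not over all genes, were Psmc1 (Rpt2, -0.46, adjusted p = 0.022), Psmd14 (-0.33, adjusted p = 0.0489) and Psmc3ip (-0.61, adjusted p = 0.0389). Over all genes these 3 stood at -0.27, -0.15 and -0.43. With 1 library left out the known-gene call was kept in 2 of 6 fits for Psmc1 and 1 of 6 each for Psmd14 and Psmc3ip (adjusted p up to 0.0799, 0.191 and 0.139), and leaving out any 1 of the 12Gy_48h libraries ended all 3 calls. So did leaving out control replicate 3, and that of Psmd14 also ended without control replicate 2 and that of Psmc3ip without control replicate 1. With known genes scaled by their totals in place of TMM, none of the 3 was called. None of the 6 ATPases was called over all genes, 0 of them had an unadjusted p under 0.05, and DESeq2 called 0.

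After 4 Gy at 48 h the proteasome genes lay close to control. Over all genes 2 of 39 were higher, Psme1 (0.57 ± 0.13 SE, adjusted p = 0.00536) and Psmd3 (0.43 ± 0.12 SE, adjusted p = 0.0213), and 0 lower, where 4.53% and 13% of all genes were. Of the known genes in that fit 6.21% were higher and 0.877% lower. Known genes fitted alone gave 0 higher and 0 lower, where 0.754% and 0.57% of known genes were, and Psme1 stood at 0.43 (adjusted p = 0.0848). At an unadjusted p under 0.05 that fit had 2 higher and 5 lower and the fit to all genes 8 higher and 0 lower, and DESeq2 over all genes called 2 higher and 0 lower. All 3 libraries of 4 Gy lay above all 3 controls for Psme1, and for Psmd3, at 71.9, 83.7 and 72.3 CPM against 63.4, 50.4 and 55.5. The call of Psmd3 ended without control replicate 2 (adjusted p = 0.053) or 4Gy_48h replicate 2 (0.0929). The median log2 fold change was 0.11 beside 0.14 for known genes.

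Between 24 h and 48 h after 12 Gy, a comparison without the controls, core and 19S genes were called lower at the later time with TMM scaling. In the fit to all genes 1 cap was called higher. Fewer genes were called lower without TMM. The known-gene median depended on the scaling too, at -0.06 with TMM and 0.12 with libraries scaled by their totals. Over all genes 12 of 39 were lower and 1 higher, where 11.4% and 20.6% of all genes were. Of the known genes in that fit 15.6% were lower and 9.97% higher. Fitted on known genes alone, 8 were lower and 3 higher, where 12.6% and 11.1% of known genes were. The median log2 difference was -0.21 beside -0.06 for known genes, and -0.16 beside -0.01 with known genes alone. At an unadjusted p under 0.05 there were 15 lower and 3 higher over all genes and 13 and 4 with known genes alone.

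These calls rest in part on the scaling. TMM factors were 0.910 to 0.957 at 12Gy_24h and 1.06 to 1.07 at 12Gy_48h, while the deposited CPM of the proteasome genes summed to nearly the same at both times: the ratio of 48 h to 24 h was 0.999 for all of them and 1.04 over known genes. Over all genes the log2 ratio was -0.07 for the alpha ring, -0.02 for the beta ring, 0.09 for the ATPases and 0.40 for the caps, and the non-ATPase ratio was 0.9998. With libraries scaled by their totals without TMM, an alternative chosen after seeing the data, 3 of 39 were lower (Psmd11, Psmd6 and Psmd5) and 5 higher, where 5.9% and 28.1% of all genes were. Of the known genes in that fit 7.75% were lower and 17.3% higher. With known genes scaled by their totals 2 were lower (Psmd11 and Psmd6) and 7 higher, where 5.92% and 19.6% of known genes were. Psme4 was among those higher in both. The known-gene median was 0.12 over all genes and 0.17 with known genes by their totals. The genes called in both fits at 24 h and at 48 h against control, and Psmd8 for 12 Gy against 4 Gy, were also called with either of these scalings. Since 12Gy_24h also enters the comparison with control, the genes that rose at 24 h and those that fell after it share those libraries.

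The 8 genes that fell in both TMM fits were Psma5 and Psma7 of the alpha ring, Psmb5 of the beta ring, Psmd1, Psmd6, Psmd7 and Psmd11 of the 19S particle and the chaperone Psmd5. Psmd11 fell by 0.83 on the log2 scale (adjusted p = 0.000576; by 0.78, adjusted p = 0.000896, with known genes alone) and returned to the range of controls. Psmd6 (Rpn7), at chr14:14112174-14120984, measured 78.4, 83.0 and 86.3 CPM in controls, 80.2, 79.2 and 92.0 in the 4Gy_48h libraries, 118, 122 and 135 in those of 12Gy_24h and 82.4, 63.9 and 86.0 in those of 12Gy_48h. The 24 h libraries stood above the other 9, and the 3 other groups overlapped. Psmd6 fell by 0.69 (adjusted p = 0.000776; by 0.64, adjusted p = 0.00167, with known genes alone). Both Psmd11 and Psmd6 kept this call in each of 6 leave-outs in each fit and with libraries scaled by their totals (-0.65 and -0.51).

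The other 6 fell by less, and by totals Psmd1 (-0.32), Psmd7 (-0.22), Psma5 (-0.21), Psma7 (-0.12) and Psmb5 (-0.36) were not called, while Psmd5 (-0.35) was called over all genes (adjusted p = 0.0346) and not with known genes (0.0678). With TMM, Psmd5 fell by 0.53, Psmd1 by 0.49, Psmd7 by 0.40, Psma5 by 0.39, Psma7 by 0.30 and Psmb5 by 0.54. With known genes alone and 1 library left out, the call was kept in 5 of 6 fits for Psmd5, 3 for Psma5, 2 each for Psmd1, Psmd7 and Psmb5 and 1 for Psma7. Over all genes Psmd5, Psma5 and Psma7 kept it in 6 of 6, Psmd1 lost it without 12Gy_48h replicate 2 (adjusted p = 0.0584) and Psmd7 without 12Gy_48h replicate 1 or 2 (0.0538 and 0.0559). For Psmb5 it was lost without 12Gy_24h replicate 1 (adjusted p = 0.151), the highest of its libraries, and without 12Gy_48h replicate 1 (0.112) or 3 (0.0702).

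Psma7 itself measured 586, 567 and 607 CPM in controls, 675, 610.2 and 616 in the 4Gy_48h libraries, 687, 697 and 772 in those of 12Gy_24h and 580.1, 576 and 596 in those of 12Gy_48h. Its 24 h libraries were the highest, and 12Gy_48h lay within the range of controls. Psmd7 (Rpn8), the partner of the deubiquitinase Psmd14, measured 102, 100.1 and 110 in controls, 130, 119 and 119.5 in the 4Gy_48h libraries, 137, 140 and 191 in those of 12Gy_24h and 121, 114 and 119 in those of 12Gy_48h. Here 12Gy_24h replicate 3 was far above its group, and without it the known-gene call was lost (adjusted p = 0.244). Called lower over all genes and not with known genes alone were Psma1 (-0.31), Psma2 (-0.31), Psma3 (-0.30) and Psmd14 (-0.36). Each of these calls ended without 12Gy_48h replicate 1 (adjusted p = 0.111, 0.109, 0.089 and 0.0596), and those of Psma1, Psma3 and Psmd14 also without 12Gy_48h replicate 2.

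Psme4 (PA200), a nuclear activator tied to the breakdown of acetylated histones, was the cap called higher at 48 h than at 24 h in both fits (0.48 ± 0.16 SE, adjusted p = 0.0259; 0.53 and adjusted p = 0.0184 with known genes alone). Its libraries read 21.7, 29.2 and 25.2 CPM in controls, 22.3, 24.4 and 22.7 in the 4Gy_48h libraries, 24.9, 22.0 and 21.9 in those of 12Gy_24h and 31.4, 37.4 and 27.4 in those of 12Gy_48h. The times after 12 Gy did not overlap, while 12Gy_48h overlapped with controls, and over all genes the call was lost without 12Gy_24h replicate 2 or 3 or 12Gy_48h replicate 1 or 2 (adjusted p up to 0.198). Psme1 (0.34, adjusted p = 0.0426) and Psme2 (0.38, adjusted p = 0.0362) were called higher with known genes alone, kept in 0 of 6 leave-outs (adjusted p up to 0.143 and 0.111), and by totals in both fits. The read-weighted transcript length was 2030 ± 2.80 nt at 12Gy_24h and 2108 ± 1.56 nt at 12Gy_48h, and its part in the differences of these genes was not tested.

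**Figure D3:**
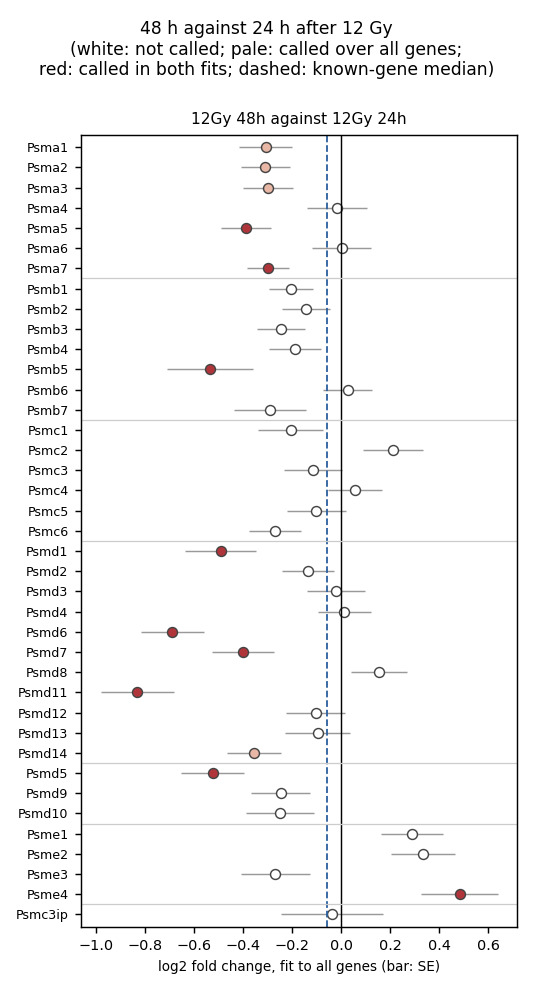
Log2 fold changes of the 39 tested proteasome genes at 48 h against 24 h after 12 Gy in the fit to all genes, with SE bars and colours as in the plot against control. The genes called in both fits are 8 below 0, with Psmd11 at -0.83 and Psmd6 at -0.69 the farthest, and Psme4 above it; of these, Psmd11, Psmd6 and Psme4 were also called in both fits scaled by totals.

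**Figure D4:**
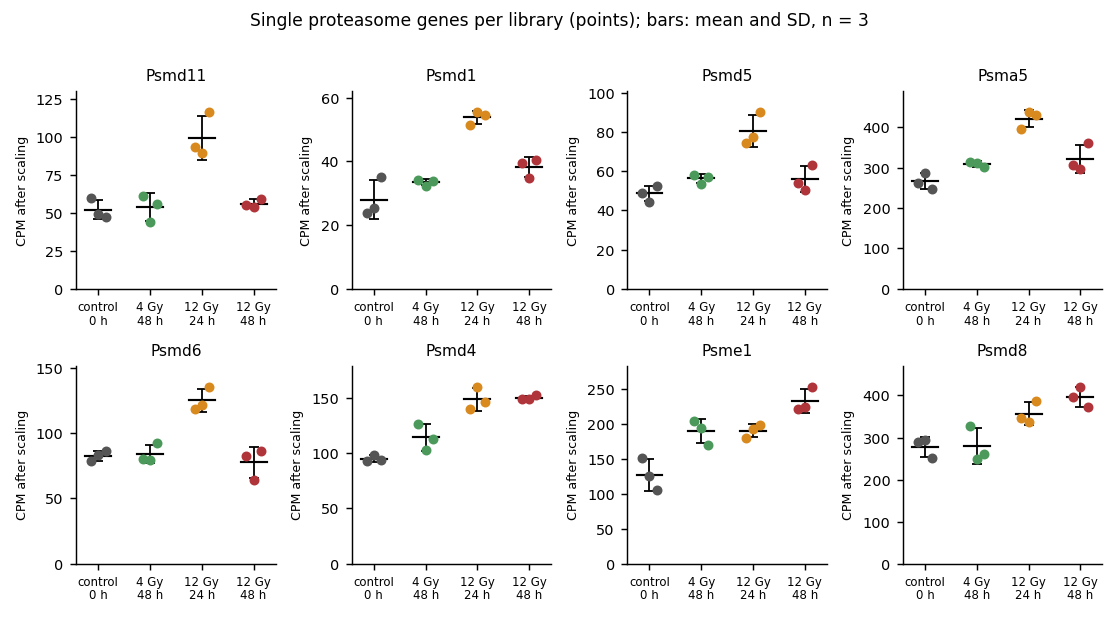
CPM after scaling of 8 proteasome genes in each of the 12 libraries (points) with mean and SD of 3 libraries, by group. Psmd11, Psmd1, Psmd5, Psma5 and Psmd6 have their highest libraries at 12 Gy 24 h, Psmd4 is level between 24 h and 48 h, and Psme1 and Psmd8 have their highest mean at 12 Gy 48 h.

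Between 12 Gy and 4 Gy at 48 h few proteasome genes differed. Over all genes 2 of 39 were higher after 12 Gy, Psmd8 and Psmd4, and 0 lower, where 2.19% and 2.49% of all genes were. Of the known genes in that fit 2.79% were higher and 1.55% lower. The known-gene fit had 1 higher, Psmd8, and 0 lower, where 2.91% and 3.22% of known genes were. At an unadjusted p under 0.05 the number lower was 1 over all genes and 2 with known genes alone, and DESeq2 called 2 higher and 0 lower. The median log2 difference was 0.02 beside 0.05 for known genes.

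Psmd8 (Rpn12), a subunit that joins late in 19S assembly, measured 288, 293 and 251 CPM in controls, 328, 249 and 262 in the 4Gy_48h libraries, 345, 336 and 388 in those of 12Gy_24h and 397, 420 and 373 in those of 12Gy_48h. The 12Gy_48h libraries lay above those of 4 Gy and of control, and 4 Gy overlapped with control. Against 4 Gy it was higher by log2 0.50 ± 0.12 SE (adjusted p = 0.023), or 0.46 with known genes alone (adjusted p = 0.0233), and the call was lost in each fit without 4Gy_48h replicate 2 or 3 or 12Gy_48h replicate 1 or 2 (adjusted p up to 0.11 and 0.129). Psmd4 was higher by 0.39 (adjusted p = 0.0483), and by 0.35 with known genes alone (adjusted p = 0.0568), and its call over all genes was kept in 1 of 6 leave-outs (adjusted p up to 0.147).

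Psmb5 (beta5, chymotrypsin-like) measured 71.6, 44.0 and 56.0 CPM in controls, 45.2, 48.9 and 51.8 in the 4Gy_48h libraries, 96.6, 66.7 and 72.6 in those of 12Gy_24h and 48.4, 62.1 and 52.3 in those of 12Gy_48h. Its controls were spread, and 12Gy_24h overlapped with them. Psmb6 (beta1, caspase-like) measured 224, 198 and 198 in controls, 242, 210.2 and 232 in the 4Gy_48h libraries, 246, 249 and 267 in those of 12Gy_24h and 243, 268 and 265 in those of 12Gy_48h, where both 12 Gy groups lay above controls. Psmb7 (beta2, trypsin-like) measured 159, 235 and 246 in controls, 237, 227 and 235.5 in the 4Gy_48h libraries, 229, 255 and 314 in those of 12Gy_24h and 224.5, 213 and 214 in those of 12Gy_48h. Psmb7 was called in none of the 5 comparisons (at 12Gy_24h, 0.32 and adjusted p = 0.0832), and an exon of Nek6 on the opposite strand overlaps it. Each irradiated group overlapped with its controls, while the 12Gy_48h libraries lay below those of 4Gy_48h and 12Gy_24h.

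The immunoproteasome subunit that replaces beta5 had another course than Psmb5. Psmb8 made up 14.8% ± 7.49 (SD, n = 3) of the reads of Psmb8 and Psmb5 together in controls and 27.3% ± 5.95 after 4 Gy. After 12 Gy its share was 7.20% ± 1.96 at 24 h and 34.2% ± 1.31 at 48 h. The 12Gy_24h shares (5.21% to 9.12%) overlapped with those of controls (8.77% to 23.2%) and rest on 20, 19 and 25 reads of Psmb8. Psmb8 was higher by 1.59 at 12Gy_48h (adjusted p = 8.89e-05), Psmb9 was lower by 1.68 at 12Gy_24h (-1.68, adjusted p = 0.00226), and Psmb10 was called in neither (0.34 at 24 h and 0.17 at 48 h). Psmb9 had only 15, 9 and 1 reads at 12Gy_24h, beside 32, 35 and 24 in controls.

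Other genes of the ubiquitin and proteasome pathway moved in both directions. Among 11 further subunits and interactors, 2 were higher and 0 lower at 12Gy_24h over all genes, and 4 and 0 at 12Gy_48h. Of all genes 18.5% were higher and 29.4% lower at 12Gy_24h and 12.9% and 20.2% at 12Gy_48h. Of the known genes in that fit 26.5% were higher and 3.99% lower at 12Gy_24h and 18.2% and 3.74% at 12Gy_48h. The genes called included Adrm1 (Rpn13), another ubiquitin receptor, at 0.64 at 24 h (adjusted p = 0.000728; 0.40 with known genes alone, adjusted p = 0.034), and Zfand5, which activates the 26S particle, at 1.30 at 48 h (adjusted p = 0.00053; 1.11 with known genes alone, adjusted p = 0.00335). Zfand5 read 5.59, 5.63 and 4.82 CPM in controls and 14.9, 13.5 and 11.2 at 12Gy_48h. Zfand2a, a stress-induced proteasome binder, was higher by 0.83 at 48 h than at 24 h (adjusted p = 0.000589), after -0.26 against control at 24 h, or -0.50 with known genes alone (adjusted p = 0.0299).

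Of the genes that help to build the core, Psmg3 and Psmg2 fell at 48 h. Of 5 measured chaperones of the core and base, 2 were higher and 1 lower at 12Gy_24h over all genes, and 0 higher and 2 lower at 12Gy_48h (of all genes 18.5% and 29.4%, and 12.9% and 20.2%). Known genes in that fit were higher and lower at 26.5% and 3.99%, and 18.2% and 3.74%. Psmg3 (PAC3) fell by 0.48 at 12Gy_48h (adjusted p = 0.00494; by 0.67, adjusted p = 0.000812, with known genes alone), from 54.2, 51.7 and 53.3 CPM in controls to 35.3, 41.5 and 37.1. Psmg2 (PAC2) fell by 0.56 (adjusted p = 0.0051). Pomp, which matures the beta ring, was called higher at 12Gy_24h over all genes (0.37, adjusted p = 0.00745) and not with known genes alone (0.13), and fell by 0.37 from 24 h to 48 h in both fits (adjusted p = 0.0131 and 0.0247), which was no call with libraries scaled by their totals (-0.19).

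The NRF1 route was measured through 13 genes, of which 3 were higher and 0 lower at 12Gy_24h and 7 and 0 at 12Gy_48h over all genes (where 18.5% and 29.4% of all genes were at 24 h and 12.9% and 20.2% at 48 h), and 0 and 3 higher with known genes alone (where 9.15% and 6.76% of known genes were). In the fit to all genes 26.5% of known genes were higher and 3.99% lower at 24 h, and 18.2% and 3.74% at 48 h. Nfe2l1 itself measured 52.4, 62.2 and 59.2 CPM in controls, 64.2, 66.1 and 67.1 at 12Gy_24h and 79.5, 84.0 and 66.9 at 12Gy_48h. It was called higher at 48 h over all genes (0.41, adjusted p = 0.021) and not with known genes alone (0.22, adjusted p = 0.256), and its relative Nfe2l2 was called in neither (0.31 at 24 h and 0.04 at 48 h). Vcp, the ATPase that draws NRF1 out of the endoplasmic reticulum, rose by 0.61 at 48 h (adjusted p = 0.000429; 0.42 and adjusted p = 0.00781 with known genes alone). Maff, a small partner of NRF1 on DNA, rose by 0.76 (adjusted p = 0.00337), and the ligase Syvn1 was called over all genes alone (0.80, adjusted p = 0.01). Reads of Syvn1 can be shared with the overlapping Mrpl49.

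The ubiquitin genes did not move together. The polyubiquitin gene Ubb measured 1716, 1646 and 1635 CPM in controls, 1972, 1525 and 1771 in the 4Gy_48h libraries, 1328, 1291 and 1574 in those of 12Gy_24h and 2321, 2375 and 2139 in those of 12Gy_48h. The 12Gy_24h libraries lay below all controls and those of 12Gy_48h above all others. Ubb fell by 0.25 at 12Gy_24h (adjusted p = 0.044; by 0.49, adjusted p = 0.00245, with known genes alone), and at 12Gy_48h it was called higher over all genes (0.45, adjusted p = 0.0024) and not with known genes alone (0.26, adjusted p = 0.0764). Rps27a, which yields ubiquitin fused to a ribosomal protein, fell by 0.32 at 12Gy_48h (adjusted p = 0.00485; by 0.51 with known genes alone, adjusted p = 0.000432). Uba1, the main enzyme that activates ubiquitin, was called higher at 12Gy_24h over all genes (0.56, adjusted p = 0.000955) and not with known genes alone (0.33, adjusted p = 0.0531). Of 5 ubiquitin and activation genes 1 was higher and 1 lower at 12Gy_24h, and 2 and 2 at 12Gy_48h, over all genes (where 18.5% and 29.4%, and 12.9% and 20.2%, of all genes were). Known genes in that fit were higher and lower at 26.5% and 3.99%, and 18.2% and 3.74%. Genes that encode ubiquitin carry near-identical units, so their reads may have been shared.

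Of 6 shuttles that carry ubiquitin chains to the proteasome, 1 was higher and 0 lower at 12Gy_24h, and 3 and 0 at 12Gy_48h, over all genes (where 18.5% and 29.4%, and 12.9% and 20.2%, of all genes were). Known genes in that fit were higher and lower at 26.5% and 3.99%, and 18.2% and 3.74%. Rad23b, which binds ubiquitin chains and the 19S particle, rose by 0.80 at 12Gy_24h (adjusted p = 0.000181) and 0.66 at 12Gy_48h (adjusted p = 0.00222), each also called with known genes alone (adjusted p = 0.0101 and 0.0323). Ubqln4 was called higher at 12Gy_48h over all genes (0.62, adjusted p = 0.0126) and not with known genes alone (0.43, adjusted p = 0.087). Sqstm1 (p62), which takes ubiquitinated cargo to autophagy, was higher by 0.63 at 48 h than at 24 h (adjusted p = 0.00341).

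**Figure D5:**
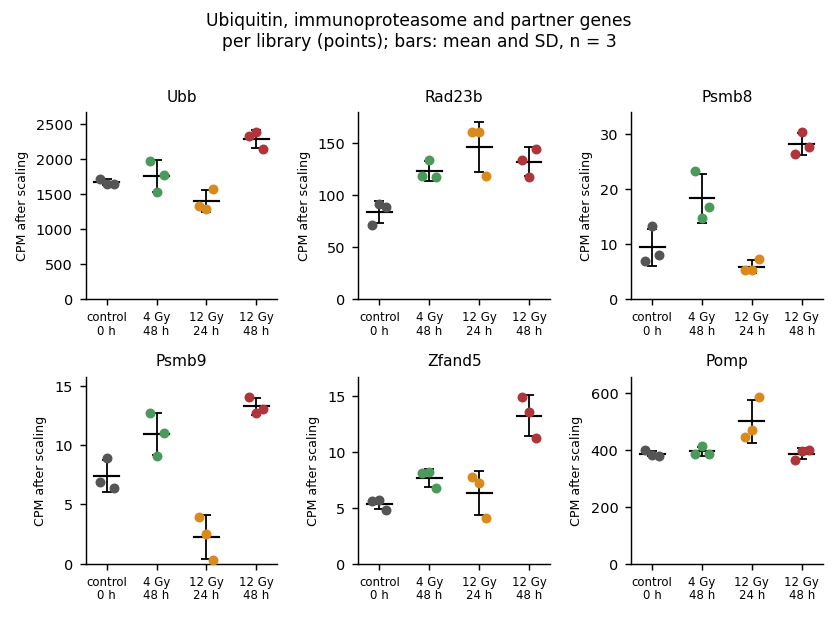
CPM after scaling of 6 genes that work with the proteasome in each of the 12 libraries (points) with mean and SD of 3 libraries, by group. Ubb, Psmb8 and Psmb9 have their lowest mean at 12 Gy 24 h and are highest at 12 Gy 48 h, Rad23b has its highest mean at 12 Gy 24 h, Zfand5 is highest at 12 Gy 48 h, and Pomp has its highest mean at 12 Gy 24 h.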

How the data were processed

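Per the labels' protocols, total RNA of MODE-K cells was made into libraries by an Illumina protocol. Cutadapt 1.9 and FastQC were used, per the submitters' processing notes. Which aligner, build, annotation and strand setting were used is not given in the sources used here, and the platform is unsettled. The deposited table holds read counts per gene, whole numbers without normalization, and CPM deposited beside them, which equal each count scaled by its library's total to within 4.78e-06. Of 33636 lines, 11 carried none of the gene types of the table and were left out.

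Tests came from edgeR 4.0.16 (R 4.3.3): low counts were removed by filterByExpr, libraries were scaled by TMM, and a quasi-likelihood model with 1 mean per group was fitted to all 12 libraries. The 5 comparisons were two-sided and adjusted over all genes fitted. The biological coefficient of variation was 0.144. Levels after scaling are CPM over TMM library sizes. SE is the error of the fitted log2 value. The test was also run on simulated counts. These held no shift of reads between new loci and known genes, so that run cannot decide between the 2 fits. Alternatives were known genes alone, testing without a filter or with one at a group mean of 5 CPM, RLE, library totals without TMM, a replicate block, only the compared groups, DESeq2 1.42.0 and leaving out each library. Library totals limit precision. Gene positions and lengths are from GENCODE on GRCm38, matched by Ensembl identifier, and sequences are from RefSeq.

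The genes and lists were chosen with earlier results of these data known. Values in every library are given for genes called in both fits (at most 4 per part by adjusted p), for the catalytic subunits and for the tested genes with the highest and lowest level; Psmd3, Psmd7, Psmd8 and Psme2 were added after their values were seen. Of each pathway list up to 3 called genes are named by smallest adjusted p over the 5 comparisons, besides Nfe2l1, Nfe2l2, Psmb8, Psmb9, Psmb10 and Pomp. Some genes of these lists are not reported here.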

Additional observations from a re-analysis of the deposited data

Results flagged for a closer look

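Of the genes reported here, Psmb9 and Ubb were called lower at 24 h and higher at 48 h after 12 Gy against the same controls over all genes, and the difference between the times was itself called. Psmb9 differed by 2.52 on the log2 scale (adjusted p = 0.000124 by edgeR's quasi-likelihood test) and Ubb by 0.70 (adjusted p = 8.14e-05). The Psmb9 values rest on few reads: 32, 35 and 24 in controls, 15, 9 and 1 at 12Gy_24h and 54, 50 and 50 at 12Gy_48h. With known genes alone these differences were 2.56 and 0.75, both called, while Psmb9 at 0.66 and Ubb at 0.26 were not called against control at 48 h. Psmb9 overlaps Tap1, and Ubb shares ubiquitin units with other genes. None of the 39 tested constitutive proteasome genes showed this reversal.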

How the results depend on the processing

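With known genes alone the number of proteasome genes called was 7 at 12Gy_24h in place of 21, 5 at 12Gy_48h in place of 9, 0 at 4Gy_48h in place of 2 and 1 for 12 Gy against 4 Gy in place of 2. For 48 h against 24 h it was 11 in place of 13. Of 47 calls over all genes, 17 were also calls with known genes alone. Without a filter, 4 genes were called at 4Gy_48h and 1 for 12 Gy against 4 Gy. Using only the compared groups, 1 was called at 4Gy_48h. RLE scaling called 1 for 12 Gy against 4 Gy. Leaving out 1 library gave 20 to 25 calls at 12Gy_24h, 7 to 11 at 12Gy_48h, 1 to 3 at 4Gy_48h, 6 to 14 for 48 h against 24 h and 0 to 2 for 12 Gy against 4 Gy. Replicate numbers did not pair the libraries (18 same-numbered pairs correlated at -0.111 to 0.125, and 5 of 12 libraries correlated best with their own number); a fit with the replicate number as a block called 19, 8, 2, 12 and 1 genes in the order of these comparisons.

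With CPM taken over reads on known genes, the summed log2 ratios to control at 12Gy_24h were 0.12 for the alpha ring (0.30 over all genes), 0.0214 for the beta ring (0.20), -0.24 for the ATPases (-0.06), 0.21 for the non-ATPase subunits (0.38) and 0.0512 for the caps (0.23), and at 12Gy_48h 0.0621 for the beta ring (0.18) and 0.27 for the non-ATPase subunits (0.39). With known genes alone and 1 library left out, the sign turned for Psma1 at 12Gy_24h (-0.0232 without control replicate 3 and -0.0257 without 12Gy_24h replicate 3), Psma4 at 12Gy_24h (-0.0624 without control replicate 1) and Psma5 at 12Gy_48h (-0.00689 without 12Gy_48h replicate 3). The cause was not tested. Libraries scaled by their totals without TMM gave 15 calls at 12Gy_24h, 14 at 12Gy_48h and 8 for 48 h against 24 h over all genes. With known genes by their totals there were 8 at 12Gy_24h, 7 at 12Gy_48h and 1 at 4Gy_48h. The fits of known genes with 1 library left out and those by totals were chosen after seeing the data. Depth limits Psmd1, Psme4 and Psmc3ip most.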
